A study of Mus musculus with 4 samples.

Results

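The genes that encode ionotropic and metabotropic receptors for glutamate and GABA were followed through photothrombotic (PT) injury of the mouse cortex and its fibrotic scar. All genes whose symbol names an AMPA (Gria), NMDA (Grin), kainate (Grik) or metabotropic glutamate (Grm) receptor, or a GABA-A (Gabra, Gabrb, Gabrg, Gabrd, Gabre, Gabrq) or GABA-B (Gabbr) subunit in the rule used were taken, which gave 41 of the 32285 genes in the files, with 1 identifier each. Measured values did not enter the rule, which was chosen with earlier results of these data known. Of the 41 genes, 4 encode AMPA, 7 NMDA, 5 kainate, 8 metabotropic glutamate, 15 GABA-A and 2 GABA-B receptor subunits.

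AMPA, NMDA and kainate receptors are cation channels assembled from several subunits, and they carry and shape fast excitation at glutamate synapses. Metabotropic receptors signal through G proteins, in presynaptic endings, postsynaptic spines and glia. GABA-A receptors are chloride channels whose alpha, beta, gamma and delta subunits set their location and kinetics, and GABA-B receptors are paired G protein-coupled subunits, so that together these families determine how cortical tissue responds to its main excitatory and inhibitory transmitters.

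Spatial transcriptomes came from Visium capture areas, on which each barcoded spot collects the mRNA of a small tissue patch with several cells. The 4 areas held 8 brain slices: 1 wild-type (WT) slice at rest and 1 at 2 days post injury (dpi), 2 WT slices at 7 dpi, 2 WT slices at 21 dpi, and 2 slices at 21 dpi from Cthrc1(creER); R26(DTA) mice, called deleter here. All slices except the one at rest had PT injury, a light-triggered clotting of cortical vessels after Rose Bengal. Each slice is 1 mouse, so a group from 7 dpi on has 2 replicates. Deleter mice carry a diphtheria toxin gene that tamoxifen-induced Cre switches on in Cthrc1-expressing myofibroblasts; the study set these slices aside because it could not detect the deletion. Cthrc1 in fibrotic spots was at 1.16 and 1.09 UMIs per 10000 at 7 dpi. It was at 0.219 and 0.175 at 21 dpi and at 0.101 and 0.132 in the deleter slices. Both deleter values were thus below both WT values of the same day, by an amount for which no test was run. The same held in the far zones defined below. Far levels of Cthrc1 were 0.116 and 0.098 in the WT slices at 21 dpi and 0.056 and 0.0756 in the deleter slices. The lower level in deleter slices was therefore not confined to fibrotic spots, and its cause was not tested. Strain background, age and sex of these particular mice are not given in the labels. The label of the first area does not say which tissue piece is at rest, so the smaller piece was taken as rest and the larger as 2 dpi, an assignment that the labels do not settle and on which every value for rest and 2 dpi rests.

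Slices held between 11332780 and 23677298 UMIs. The slice at 2 dpi stood apart, with a median of 2634 UMIs per spot and 21.7% of spots under 1000 UMIs, where the other medians lay between 12447 and 16158. Capture areas share barcodes by design of the array (1293 of 3446 occur in all 4), and spots were joined to positions within their own area. Time and genotype coincide with capture area except between rest and 2 dpi, so they cannot be told apart from the area in any comparison between groups.

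Spots with at least 5 Col1a1 UMIs per 10000, Col1a1 being a fibrillar collagen of fibroblasts, were called fibrotic. They numbered 112 and 392 at 7 dpi, 170 and 203 at 21 dpi, 193 and 274 in the deleter slices, 26 at 2 dpi and 3 at rest. The largest connected patch held 45 and 376 of them at 7 dpi and 95 and 185 at 21 dpi. In the deleter slices it held 152 and 232. Away from the tissue edge lay 35 and 320 fibrotic spots at 7 dpi and 111 and 156 at 21 dpi. In the deleter slices these were 126 and 205. Most fibrotic spots of 7 dpi slice 1 thus lay at the tissue edge. Whether edge spots belong to the scar was not tested. All spots not called fibrotic were ranked by their distance on the hexagonal array from the nearest fibrotic spot. They were near (1 to 2 positions), middle (3 to 4) or far (5 or more). A level below is always UMIs of a gene per 10000 UMIs of all genes in that zone, and a log2 difference always compares zones. Genes were not compared with each other by level. In spots, fewer neurons and less receptor mRNA per neuron cannot be told apart.

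**Figure D1:**
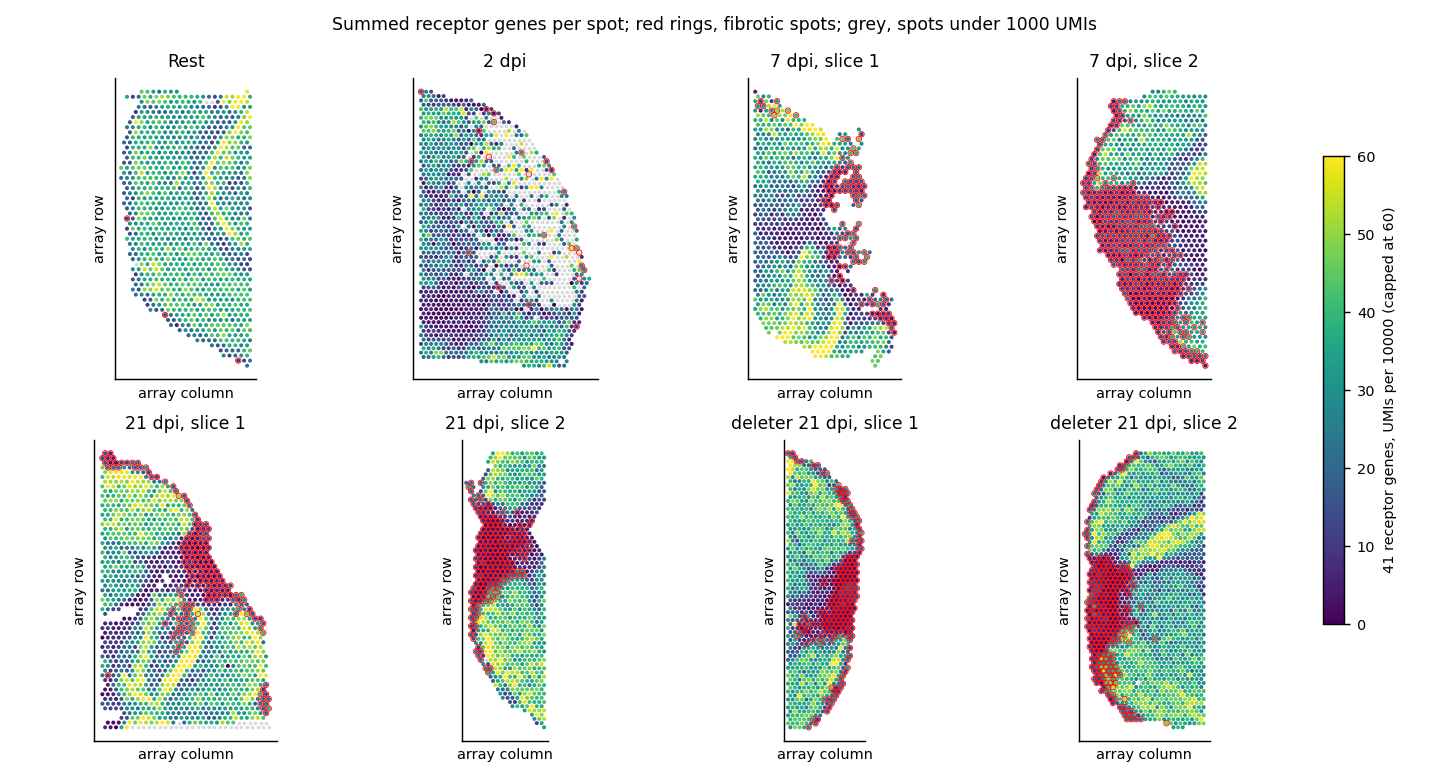
Array position of every tissue spot in the 8 slices (axes, array column and row), coloured by the summed UMIs of the 41 receptor genes per 10000 UMIs of the spot, capped at 60; red rings mark fibrotic spots and grey marks spots under 1000 UMIs. In the 6 slices at 7 and 21 dpi the rings form patches and also line parts of the outer tissue edge, and spots beside the patches are mostly darker than those farther away.

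Promoter windows of the members that anchor the results are shown here with the letters searched for in capitals, from the RefSeq table of windows running from 250 bases before to 50 bases after a gene start. Of the 41 members, 28 had a window. Searched on both strands were both parts of the RE1 element, which the repressor REST binds in non-neuronal cells (TTCAGCACC and GGACAGC), the GC box (GGGCGG), the TATA box (TATAAA) and the cAMP response element (TGACGTCA). Grm2 and Grin1 are shown because they had among the largest falls in fibrotic spots, Gria2 because it sets calcium permeability of AMPA receptors, and Gabra4 and Gabrb1 because they start 387 bases apart on opposite strands, and had different point estimates of their fall.
Grm2 (GRCm38.p6 chr9:106656060-106656359, minus strand): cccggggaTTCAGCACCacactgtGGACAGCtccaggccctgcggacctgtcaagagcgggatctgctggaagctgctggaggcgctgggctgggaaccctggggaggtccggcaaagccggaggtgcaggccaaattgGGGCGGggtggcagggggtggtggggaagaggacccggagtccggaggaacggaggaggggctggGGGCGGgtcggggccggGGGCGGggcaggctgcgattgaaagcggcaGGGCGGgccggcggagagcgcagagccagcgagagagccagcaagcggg
Gria2 (GRCm38.p6 chr3:80802786-80803085, minus strand): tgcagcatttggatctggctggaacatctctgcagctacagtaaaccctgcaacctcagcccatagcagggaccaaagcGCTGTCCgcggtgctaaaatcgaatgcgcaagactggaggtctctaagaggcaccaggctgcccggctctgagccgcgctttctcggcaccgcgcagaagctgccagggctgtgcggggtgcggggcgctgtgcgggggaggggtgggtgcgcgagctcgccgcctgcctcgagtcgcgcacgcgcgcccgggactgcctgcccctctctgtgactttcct
Grin1 (GRCm38.p6 chr2:25319138-25319437, minus strand): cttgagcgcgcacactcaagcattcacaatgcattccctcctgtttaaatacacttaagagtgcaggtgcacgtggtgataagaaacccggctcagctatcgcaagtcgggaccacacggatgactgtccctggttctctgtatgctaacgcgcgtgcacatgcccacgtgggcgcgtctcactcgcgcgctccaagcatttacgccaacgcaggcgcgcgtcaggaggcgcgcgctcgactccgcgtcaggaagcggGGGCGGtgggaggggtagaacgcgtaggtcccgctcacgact
Gabra4 (GRCm38.p6 chr5:71658259-71658558, minus strand): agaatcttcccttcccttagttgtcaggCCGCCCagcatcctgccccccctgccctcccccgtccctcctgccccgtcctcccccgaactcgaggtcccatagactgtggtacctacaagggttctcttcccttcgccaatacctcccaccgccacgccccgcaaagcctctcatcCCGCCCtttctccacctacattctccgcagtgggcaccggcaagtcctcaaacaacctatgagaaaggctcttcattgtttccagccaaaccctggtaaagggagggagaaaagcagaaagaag
Gabrb1 (GRCm38.p6 chr5:71657671-71657970, plus strand): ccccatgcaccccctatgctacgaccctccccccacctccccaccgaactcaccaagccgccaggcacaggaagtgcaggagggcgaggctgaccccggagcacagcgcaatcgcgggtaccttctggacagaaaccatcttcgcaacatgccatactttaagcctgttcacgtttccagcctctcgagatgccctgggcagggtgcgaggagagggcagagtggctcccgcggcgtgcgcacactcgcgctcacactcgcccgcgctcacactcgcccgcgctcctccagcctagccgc
Both RE1 parts stand close together in the Grm2 window, the first of them in 0.371% of all 32851 windows and in no other member. The second part was found in Grm2 and Gria2, and in 6.56% of all windows. A GC box was found in 17 of the 28 members with a window, 60.7% against 35.7% of all windows, with Gabra4 and Grin1 among them and not Gabrb1. A TATA box was found in 3 of the 28 members (Gabra3, Gabrb2 and Grin3b; 13.6% of all windows) and the full cAMP response element in 0 (1.79% of all windows). The 28 members had 35 windows, and a member counted if any of its own windows matched, while shares of all windows are per window. Member and window percentages are therefore not like for like. All of these are matches of letters in the reference and not measured binding.

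The first comparison asked how receptor transcripts in fibrotic spots differ from those in distant tissue of the same slice. Nearly all members with enough UMIs to test were lower in fibrotic spots at 7 and 21 dpi. Summed over the 41 genes, the level in fibrotic spots was 11.3 and 10.3 at 7 dpi, 8.86 and 7.67 at 21 dpi and 8.49 and 12.3 in the deleter slices, against 35.1 and 32.2, 33.2 and 40.1, and 36.6 and 34.7 UMIs per 10000 in the far zones. The fibrotic level was thus 19.1 to 35.4% of the far level, and the groups of values did not overlap. Of the 41 members, 35 had enough UMIs to be tested, and 34 of them were lower in the 4 WT slices with edgeR's quasi-likelihood test (adjusted p under 0.05), the slice being a block. Over all 13691 genes tested, 29.1% were called lower. The median log2 difference of the tested members was -1.74, beside -0.02 over all genes, and 35 of 35 had a negative value.

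The summed level was lower in fibrotic spots for all 6 receptor classes in all 6 slices. Fibrotic levels were 20.1 to 39.4% of far levels for AMPA, 14.4 to 33.8% for NMDA and 28.5 to 36.9% for kainate receptor genes over the 6 slices. They were 19.3 to 34.9% for metabotropic glutamate, 18.3 to 34.5% for GABA-A and 19.95 to 39.0% for GABA-B receptor genes. The ranges of all classes overlapped.

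**Figure D2:**
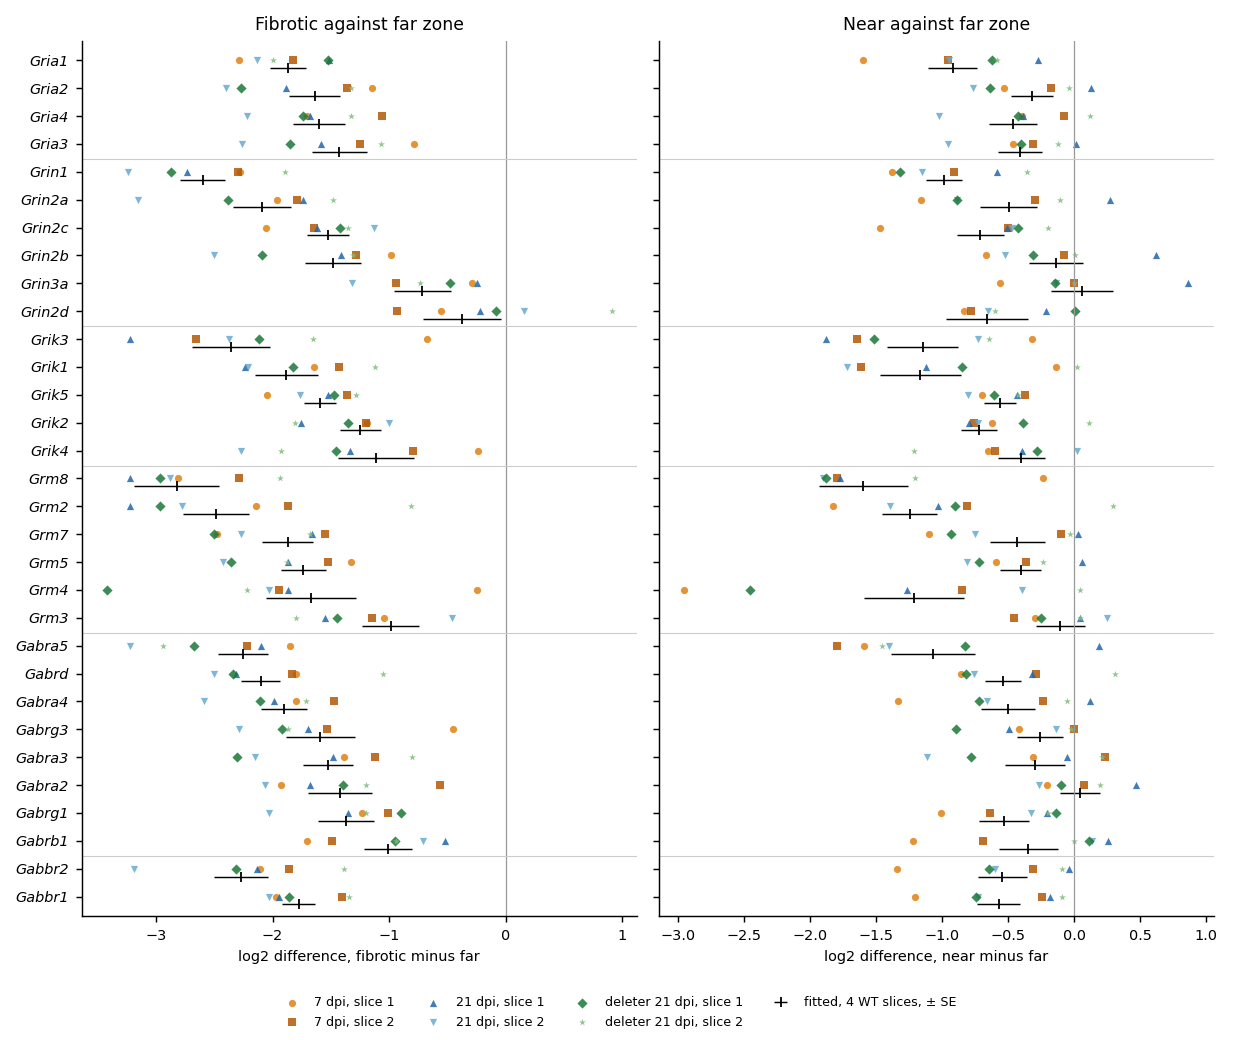
Log2 difference of 31 tested receptor genes between fibrotic and far spots (left) and between near and far spots (right), 1 coloured symbol per slice and a black bar for the edgeR estimate ± SE over the 4 WT slices; grey lines separate AMPA, NMDA, kainate, metabotropic glutamate, GABA-A and GABA-B genes. On the left the symbols lie left of 0 for all genes except Grin2d, and on the right many straddle 0.

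Among AMPA receptor genes, all 4 members fell. Gria2 was at 2.31 and 1.42 at 7 dpi, 1.07 and 0.901 at 21 dpi and 0.993 and 1.61 in the deleter slices in fibrotic spots, and at 5.13 and 3.67, 3.95 and 4.77, and 4.80 and 4.06 UMIs per 10000 in the far zones of the same slices. Gria2 encodes the subunit that keeps AMPA receptors impermeable to calcium. Its log2 difference was -1.64 ± 0.22 (SE, n = 4 slices; edgeR adjusted p = 5.8e-04), and fibrotic values were below far values in all 6 slices. Gria1, which is recruited to synapses during plasticity, fell by more on the point estimate (-1.87 ± 0.15, adjusted p = 8.2e-05), and Gria3 and Gria4 had -1.43 ± 0.24 and -1.60 ± 0.22. The differences between members were not tested.

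NMDA receptor genes spanned the widest range. Grin1 was at 0.413 and 0.603 at 7 dpi, 0.402 and 0.347 at 21 dpi and 0.366 and 0.749 in the deleter slices in fibrotic spots, and at 2.04 and 2.96, 2.69 and 3.29, and 2.69 and 2.78 UMIs per 10000 in the far zones of the same slices. Grin1 encodes the subunit that every NMDA receptor needs. It had the second largest fall of all members tested, with a log2 difference of -2.60 ± 0.19 (edgeR adjusted p = 6.3e-05, n = 4 slices). Grin2a and Grin2b, the main partners in mature and in younger cortex, had -2.09 ± 0.25 and -1.48 ± 0.24, and Grin2c had -1.53 ± 0.18, all 3 called. Grin3a, which yields receptors of low calcium permeability, had a small fall. Grin3a was at 0.142 and 0.0956 at 7 dpi, 0.0715 and 0.0701 at 21 dpi and 0.113 and 0.0854 in the deleter slices in fibrotic spots, and at 0.180 and 0.184, 0.0869 and 0.179, and 0.159 and 0.144 UMIs per 10000 in the far zones of the same slices. Fibrotic and far levels of Grin3a overlapped across slices, and the log2 difference was -0.72 ± 0.24 (adjusted p = 0.0375). It was not called without 7 dpi slice 2 (adjusted p = 0.154) or without 21 dpi slice 2 (adjusted p = 0.147). Grin2d, found mainly in interneurons and early development, was the single tested member that was not called. Grin2d was at 0.0236 and 0.0228 at 7 dpi, 0.0313 and 0.0491 at 21 dpi and 0.0350 and 0.0606 in the deleter slices in fibrotic spots, and at 0.0430 and 0.0444, 0.0386 and 0.0447, and 0.0381 and 0.0327 UMIs per 10000 in the far zones of the same slices. These levels rest on few UMIs and overlapped, with a log2 difference of -0.38 ± 0.33 (adjusted p = 0.364). Grin3b was at or under 0.0105 UMIs per 10000 in every zone of the 6 slices and was not tested.

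Kainate receptor genes all fell. Grik3 was at 0.106 and 0.0523 at 7 dpi, 0.0313 and 0.0946 at 21 dpi and 0.0895 and 0.121 in the deleter slices in fibrotic spots, and at 0.179 and 0.335, 0.313 and 0.498, and 0.397 and 0.385 UMIs per 10000 in the far zones of the same slices. Grik3, a low-affinity kainate subunit, had a log2 difference of -2.36 ± 0.33 (adjusted p = 7.2e-04), with the least separation in 7 dpi slice 1. Grik5, a high-affinity subunit, had -1.59 ± 0.14, and Grik1 had -1.88 ± 0.27. Grik2 was at 0.154 and 0.107 at 7 dpi, 0.103 and 0.137 at 21 dpi and 0.117 and 0.110 in the deleter slices in fibrotic spots, and at 0.363 and 0.246, 0.354 and 0.277, and 0.302 and 0.391 UMIs per 10000 in the far zones of the same slices. Grik2, the common pore-forming kainate subunit, was lower in every slice, with a log2 difference of -1.25 ± 0.17 (adjusted p = 7.1e-04). Grik4 was at 0.142 and 0.0774 at 7 dpi, 0.0671 and 0.0315 at 21 dpi and 0.0467 and 0.0579 in the deleter slices in fibrotic spots, and at 0.174 and 0.135, 0.175 and 0.160, and 0.132 and 0.225 UMIs per 10000 in the far zones of the same slices. Grik4, the other high-affinity subunit, differed least in 7 dpi slice 1 and was lower in the other slices (-1.11 ± 0.32, adjusted p = 0.0208). It was not called without 21 dpi slice 1 (adjusted p = 0.0822).

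Metabotropic glutamate receptors held both the largest fall and one of the small ones. Grm8 was at 0 and 0.0228 at 7 dpi, 0.00894 and 0.0175 at 21 dpi and 0.0195 and 0.0276 in the deleter slices in fibrotic spots, and at 0.0410 and 0.115, 0.104 and 0.140, and 0.166 and 0.110 UMIs per 10000 in the far zones of the same slices. Grm8 is a group III receptor that restrains transmitter release. No UMI of it was seen in the fibrotic spots of 7 dpi slice 1, where 3 counts of 846868 UMIs would be 0.0354 per 10000, and the log2 difference was -2.82 ± 0.36 (adjusted p = 4.8e-04). Grm2 was at 0.0354 and 0.0387 at 7 dpi, 0.0179 and 0.0315 at 21 dpi and 0.0195 and 0.0523 in the deleter slices in fibrotic spots, and at 0.182 and 0.144, 0.187 and 0.228, and 0.166 and 0.0938 UMIs per 10000 in the far zones of the same slices. Grm2, a presynaptic group II receptor, fell by a similar amount (-2.49 ± 0.29, adjusted p = 2.9e-04). Grm3, the group II receptor that astrocytes also carry, fell by less. Grm3 was at 0.0827 and 0.0523 at 7 dpi, 0.0358 and 0.0981 at 21 dpi and 0.0740 and 0.0413 in the deleter slices in fibrotic spots, and at 0.183 and 0.118, 0.111 and 0.136, and 0.206 and 0.148 UMIs per 10000 in the far zones of the same slices. Its log2 difference was -0.99 ± 0.24 (adjusted p = 0.0104), and 21 dpi slice 2 had the highest fibrotic level. The group I receptor Grm5 had -1.74 ± 0.19, and the group III receptors Grm4 and Grm7 had -1.67 ± 0.39 and -1.87 ± 0.22, all called, Grm4 not without 7 dpi slice 2 (adjusted p = 0.0526). Grm6, a receptor of retinal bipolar cells, had next to no UMIs.

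GABA-A receptor genes fell across alpha, beta, gamma and delta subunits, with 11 of the 15 members tested and 11 called. Gabra5, an extrasynaptic alpha subunit prominent in hippocampus and deep cortex, had a log2 difference of -2.25 ± 0.21. Gabrd, the delta subunit of tonic inhibition, had -2.10 ± 0.17. Gabrb1 was at 0.260 and 0.262 at 7 dpi, 0.411 and 0.347 at 21 dpi and 0.343 and 0.383 in the deleter slices in fibrotic spots, and at 0.866 and 0.737, 0.594 and 0.570, and 0.663 and 0.738 UMIs per 10000 in the far zones of the same slices. Gabrb1, a beta subunit also found in glia, was lower in every slice, with a log2 difference of -1.01 ± 0.20 (adjusted p = 0.00407). Its head-to-head neighbour Gabra4, whose window is printed above, had -1.90 ± 0.20. Gabra2, Gabra3, Gabrg1 and Gabrg3 lay between -1.59 (Gabrg3) and -1.37 (Gabrg1). Gabra6, Gabrb2, Gabre and Gabrq were too low to test, with Gabrb2 between 0.0147 and 0.0200 UMIs per 10000 in far zones. Gabre had 0 and 5 UMIs at 7 dpi, 3 and 1 at 21 dpi and 5 and 2 in the deleter slices in fibrotic spots. In the far zones of the same slices it had 0 and 0, 5 and 0, and 0 and 0 UMIs. The fall is therefore a result for the tested members only. The RefSeq 3' end of Gabrb2 lies 3563 bases beyond its end in the GENCODE annotation. Whether its UMIs were undercounted for that reason was not tested, so its low count need not mean a low transcript level.

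Both GABA-B genes fell. Gabbr2 was at 0.342 and 0.389 at 7 dpi, 0.282 and 0.221 at 21 dpi and 0.358 and 0.529 in the deleter slices in fibrotic spots, and at 1.5003 and 1.41, 1.24 and 2.03, and 1.79 and 1.39 UMIs per 10000 in the far zones of the same slices. Gabbr2, the subunit that couples to G proteins, had -2.27 ± 0.23 (adjusted p = 1.7e-04) and Gabbr1, which binds GABA, -1.78 ± 0.14 (adjusted p = 7.6e-05). Fibrotic levels of both were below far levels in all 6 slices.

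Neuronal and other markers moved with this result. All 10 pan-neuronal markers were lower (median log2 difference -1.99; Snap25 -2.27, Syt1 -2.41), as were 7 of 8 glutamatergic and 8 of 8 GABAergic neuron markers (medians -1.89 and -1.98). Their summed fibrotic level was 12.98 to 20.8 UMIs per 10000 for the pan-neuronal list over the 6 slices and 48.1 to 91.8 in far zones. Microglia and macrophage markers were higher in 7 of 7 (median 2.28) and fibroblast markers in 6 of 6, a list that holds the Col1a1 used to define the zone. Endothelial and mural markers were higher in 5 of 5 (median 1.39) and oligodendrocyte precursor markers in 4 of 6 (median 1.32), while 2 of 7 astrocyte markers were lower (median -0.16). Oligodendrocyte markers were lower in 5 of 6. Their sum was lower in fibrotic than far spots except in 21 dpi slice 2, with 114.5 against 73.9 UMIs per 10000. Markers of deep structures were lower in 3 of 6, with summed levels of 0.990 to 5.87 per 10000 in far zones. Their part in the result was not tested. With myelin-rich and deep-structure spots left out of all zones, an alternative chosen after seeing the data, 34 of 35 members and 4252 of 13424 genes were called lower (median of the members -1.83). With edge spots left out, 34 of 35 members and 3694 of 13352 genes were.

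Divided by pan-neuronal marker UMIs in place of all UMIs, receptor transcripts in fibrotic spots showed no general fall. On this scale 7 of 35 members were called higher and 0 lower, where 88.1% of all genes were called higher. At an unadjusted p under 0.05 the members numbered 7, all higher. The 7 were Grin2d (1.77 ± 0.55), Grin3a (1.43 ± 0.39), Grm3 (1.12 ± 0.44), Gabrb1 (1.09 ± 0.37), Grik4 (0.98 ± 0.40), Grik2 (0.88 ± 0.36) and Gria3 (0.70 ± 0.31), in log2 units with SE. The lowest values were those of Grm8 (-0.69 ± 0.58), Grin1 (-0.47 ± 0.31) and Grm2 (-0.37 ± 0.45), none called. All 7 called here are among the members with smaller falls per total UMIs, since a change of scale moves every gene by about the same amount.

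**Figure D3:**
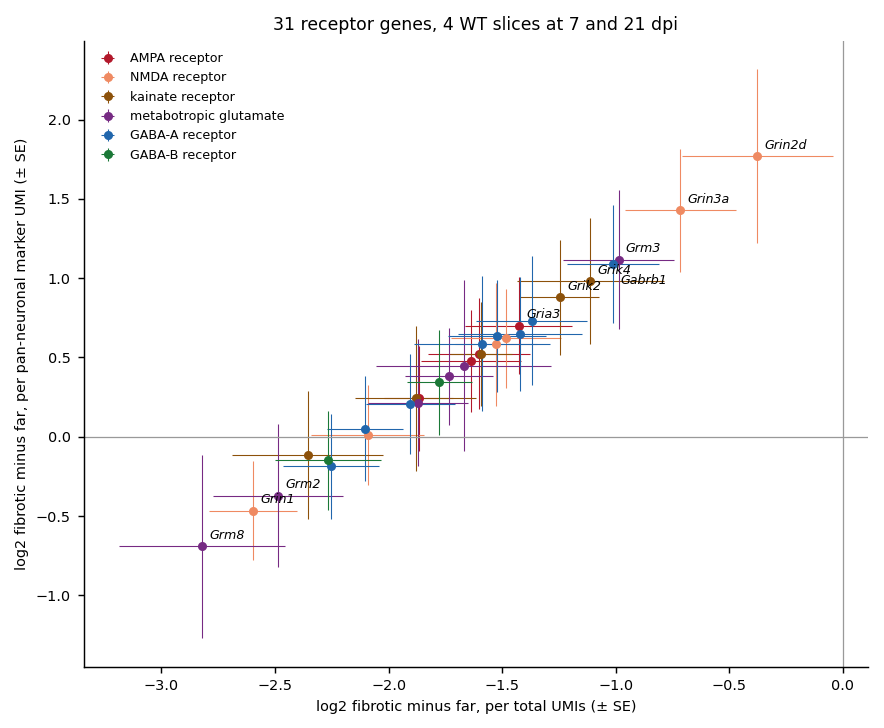
Log2 difference between fibrotic and far spots for 31 tested receptor genes in the 4 WT slices, per total UMIs (horizontal) and per UMI of 10 pan-neuronal marker genes (vertical), ± SE, coloured by receptor class. All points lie left of 0 on the horizontal axis, and they run from -0.69 (Grm8) to 1.77 (Grin2d) on the vertical axis.

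The genes that act with these receptors mostly fell too. Of 32 auxiliary subunits and scaffolds of glutamate receptors, 28 were lower and 0 higher in fibrotic spots (median -1.44), among them Nsf (-1.78), Camk2a (-1.37), Dlgap1 (-1.55) and Camk2b (-2.36). Of 12 such genes for GABA receptors, 6 were lower and 2 higher; Gabarapl1, the member with most UMIs at rest, had -1.22. The 2 that rose, named after their values were seen, were Gabarap (1.04), a trafficking protein also used in autophagy, and Kctd12 (1.48), a GABA-B auxiliary subunit. Of 20 genes of transmitter synthesis and transport, 13 were lower, such as the astrocytic glutamate transporter Slc1a2 (-1.30) and the vesicular transporter Slc17a7 (-2.24), and 2 higher, here too named after their values were seen, Slc38a2 (1.47) and the GABA transporter Slc6a13 (2.19), which meninges express. The delta-type glutamate and glycine receptor genes outside the rule were lower in 4 of the 5 tested.

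The deleter slices, which the WT test did not use, gave the same count in a test of their own. That fit had 2 slices and 1 residual degree of freedom, so its small p-values rest largely on variance estimates that edgeR shares between genes. In them 34 of 35 members were lower and 0 higher, against 27.9% of 13705 genes called lower (median of members -1.79, of all genes 0.02). The largest falls were those of Gabra5 (-2.86 ± 0.21, adjusted p = 8.2e-08) and Grm4 (-2.81 ± 0.48, adjusted p = 2.2e-04). Grin2d was the exception, with 0.51 ± 0.44 (adjusted p = 0.338), and Grin3a had -0.64 ± 0.26 (adjusted p = 0.0462). With 1 slice left, the median was -1.35 without deleter slice 1 and -2.16 without deleter slice 2, for which no test exists. Per pan-neuronal marker UMI, Grin2d (2.54 ± 0.73) and Grin3a (1.51 ± 0.65) were called higher and 0 members lower, where 77.8% of all genes were called higher.

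The next comparison asked whether the fall reaches into tissue beside fibrotic spots, which include those lining the outer tissue edge. Near spots numbered 180 and 199 at 7 dpi, 246 and 163 at 21 dpi and 257 and 244 in the deleter slices. Of these, 34 and 158, 78 and 114, and 143 and 120 lay within 2 positions of the largest connected patch of fibrotic spots. The summed level in near spots was 52.0 and 75.1% of the far level at 7 dpi, 95.4 and 57.5% at 21 dpi and 61.5 and 89.6% in the deleter slices, lower in every slice and by widely differing amounts. In the 4 WT slices 13 of 35 members were called lower and 0 higher, against 10.9% of 13264 genes called lower (median of members -0.53, of all genes -0.02), and 2 members had a positive value. Among the 13 were Grm8 (-1.59 ± 0.34), Grm2 (-1.24 ± 0.21), Grik1 (-1.17 ± 0.31), Grik3 (-1.15 ± 0.27), Gabra5 (-1.07 ± 0.32), Grin1 (-0.99 ± 0.14), Gria1 (-0.92 ± 0.19), Grik2 (-0.72 ± 0.14), Grin2c (-0.71 ± 0.18), Gabbr1 (-0.57 ± 0.17), Grik5 (-0.56 ± 0.12) and Gabrd (-0.54 ± 0.14). Grin1 was at 0.781 and 1.58 at 7 dpi, 1.79 and 1.48 at 21 dpi and 1.08 and 2.17 in the deleter slices in near spots, and at 2.04 and 2.96, 2.69 and 3.29, and 2.69 and 2.78 UMIs per 10000 in the far zones of the same slices. Near values of Grin1 were below far values in all 6 slices, and its adjusted p was 0.00242. Grm8 was at 0.0325 and 0.0318 at 7 dpi, 0.0290 and 0.0357 at 21 dpi and 0.0439 and 0.0467 in the deleter slices in near spots, and at 0.0410 and 0.115, 0.104 and 0.140, and 0.166 and 0.110 UMIs per 10000 in the far zones of the same slices. Near values of Grm8 differed little from far in 7 dpi slice 1 and were lower in the other slices (adjusted p = 0.0128). Gria2 was at 3.55 and 3.25 at 7 dpi, 4.31 and 2.80 at 21 dpi and 3.09 and 3.96 in the deleter slices in near spots, and at 5.13 and 3.67, 3.95 and 4.77, and 4.80 and 4.06 UMIs per 10000 in the far zones of the same slices. Gria2 was close to its far level in both 21 dpi slice 1 and deleter slice 2 (-0.32 ± 0.16, adjusted p = 0.177), and Grin3a (0.06 ± 0.23) and Gabra2 (0.04 ± 0.15) had the values above 0.

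The near count moved with the choice of slices and reference. The number of all genes called lower moved with it. The members' count was 3 without 7 dpi slice 2, where 492 of 13425 genes were called lower, and 6 without 7 dpi slice 1, where 420 of 13271 were. It was 24 with the deleter slices added, where 2626 of 13234 genes were called lower. Against the middle zone in place of the far zone, edgeR called 0 of 32 members and 10 of 12338 genes lower (15 members and 2368 genes in either direction at an unadjusted p under 0.05). Of the pan-neuronal markers 8 of 10 were lower in near spots (median -0.79), and of 7 astrocyte markers 1 was (median 0.15). Microglia and macrophage markers were higher in 7 of 7 (median 1.90) and fibroblast markers in 6 of 6 (1.95). Oligodendrocyte precursor markers, which share Pdgfra with the fibroblast list, were higher in 4 of 6 (0.96). Endothelial and mural markers were higher in 2 of 5 (0.40). Their part in the result was not tested. In 21 dpi slice 2 the near zone held 207.1 UMIs per 10000 of oligodendrocyte markers against 73.9 in its far zone. Per pan-neuronal marker UMI, Grin3a (0.82 ± 0.27), Gabra2 (0.80 ± 0.20), Grin2b (0.63 ± 0.20) and Gria2 (0.46 ± 0.19) were called higher and 0 members lower, where 60.2% of all genes were called higher.

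**Figure D4:**
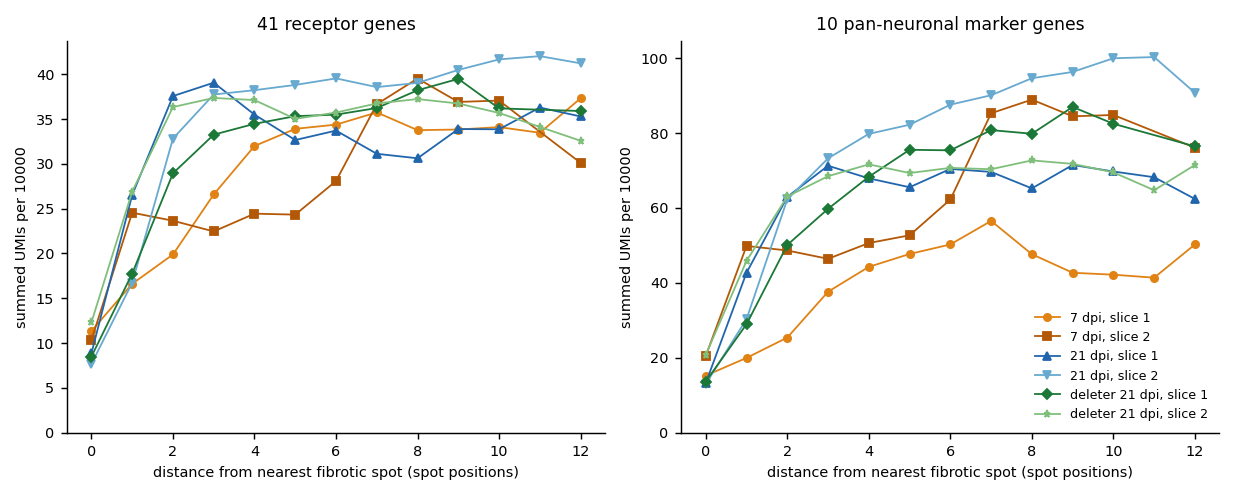
Summed UMIs per 10000 of the 41 receptor genes (left) and of 10 pan-neuronal marker genes (right) against distance from the nearest fibrotic spot, in array positions (0, fibrotic spots), 1 line per slice. Receptor levels lie between 7.67 and 12.3 in fibrotic spots and reach 30 or more by a distance of 2 in 21 dpi slices 1 and 2 and deleter slice 2, by 3 in deleter slice 1, by 4 in 7 dpi slice 1 and by 7 in 7 dpi slice 2.

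The distance at which receptor levels were higher again varied between slices. The summed level rose from 8.86 in fibrotic spots to 26.5, 37.6 and 39.1 UMIs per 10000 at distances 1, 2 and 3 in 21 dpi slice 1. In 7 dpi slice 2 it was 10.3, 24.6, 23.7 and 22.5 over the same distances and 36.7 at distance 7. Both 7 dpi slices took more positions to reach 30 than the 4 slices at 21 dpi, with 1 capture area per time and genotype and no test. The level of 30 was not a planned setting and was the same for all slices. Their far levels ran from 32.2 in 7 dpi slice 2 to 40.1 in 21 dpi slice 2. Whether the order of slices holds relative to their own far levels was not tested.

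Whether the fall in fibrotic spots differed between 7 and 21 dpi was tested as an interaction over the 4 WT slices. With edgeR, 0 of 35 members and 0 of 14546 genes (0%) passed, while at an unadjusted p under 0.05 there were 7 members and 1538 genes, and DESeq2 called 0 members and 80 genes. The median of the members was -0.63 and that of all genes 0.02, a negative value meaning a larger fall per total UMIs at 21 dpi. Of the 35 members 30 were negative. Medians were -0.83 for pan-neuronal, -0.69 for glutamatergic and -0.77 for GABAergic neuron markers. They were 1.04 for astrocyte, 1.02 for microglia and macrophage and 1.18 for oligodendrocyte markers. In these 6 lists 0 markers were called, and their part in the result was not tested. Gabrb1 went the other way, with a smaller fall at 21 dpi by 0.96 ± 0.23 (adjusted p = 0.238), and Gabra4 had -0.70 ± 0.28 (adjusted p = 0.442). Gria2 (-0.89 ± 0.25), Gria3 (-0.89 ± 0.31), Grik4 (-1.20 ± 0.49), Grin1 (-0.70 ± 0.25) and Grm5 (-0.69 ± 0.27) made up the 7 with them. Without 21 dpi slice 1, 10 members were called, all with a more negative difference at 21 dpi, and so were 1433 of 15014 genes, 407 of them in that direction. Per pan-neuronal marker UMI, Gabrb1 alone was called (1.78 ± 0.42, adjusted p = 0.0267), where 4.61% of all genes were called higher. The median on that scale was 0.19 for the members and 0.83 for all genes. Depth of the zones differed between days. Median UMIs per spot at 7 dpi were 4923.5 and 9206.5 in fibrotic and 16802.5 and 18063 in far spots. At 21 dpi they were 10828 and 13879 in fibrotic and 13045.5 and 12827 in far spots. Whether the fall in receptor UMIs per spot differed between days was not tested.

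In the far zone no member passed the test between days or genotypes, with 2 slices a group. Between 21 and 7 dpi, edgeR called 0 of 36 members and 3 of 14285 genes (0.0210%), and DESeq2 called 0 members and 44 genes. At an unadjusted p under 0.05 in edgeR there were 2 members (Gabrd 0.49 ± 0.20 and Gabrb1 -0.46 ± 0.15) and 870 genes. The members' median was 0.07, within a range of -0.48 to 0.70. Between deleter and WT slices at 21 dpi, edgeR called 0 of 36 members and 0 of 14050 genes (0%), with 4 members and 432 genes at an unadjusted p under 0.05. Gabra2, an alpha subunit of the axon initial segment, was the largest of these. Gabra2 was at 0.118 and 0.207 at 7 dpi, 0.125 and 0.0876 at 21 dpi and 0.276 and 0.317 in the deleter slices in fibrotic spots, and at 0.472 and 0.306, 0.408 and 0.372, and 0.733 and 0.730 UMIs per 10000 in the far zones of the same slices. Its far level was higher in both deleter slices than in any of the 4 WT slices (1.01 ± 0.12, edgeR adjusted p = 1.00), and DESeq2 called it as 1 of 3 genes. Grm5 (0.58 ± 0.12) and Gabrb1 (0.38 ± 0.12) were also among the 4.

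Subunit pairs, such as those whose balance shifts in development, were compared as ratios within each slice, 5 ratios in 2 contrasts. None of the 10 passed Benjamini-Hochberg adjustment; the exact two-sided sign-flip test over 6 slices cannot go below p = 0.0313. Grin2b to Grin2a was higher in fibrotic than far spots in 6 of 6 slices, by 0.49 ± 0.29 (SD, log2; exact p = 0.0313, adjusted 0.0781), and in near spots in 6 of 6, by 0.35 ± 0.17 (exact p = 0.0313, adjusted 0.0781). In fibrotic spots that ratio was 1.00 and 0.667 at 7 dpi, 0.440 and 0.629 at 21 dpi, and 0.687 and 0.525 in the deleter slices, against 0.507, 0.469, 0.352, 0.402, 0.560 and 0.466 in the far zones. Grm3 to Grm5 (0.62 ± 0.72) was also higher in fibrotic spots in 6 of 6 slices (exact p = 0.0313, adjusted 0.0781), led by 21 dpi slice 2 with 1.96 and at 0.35 without it. Gria1 to Gria2 (-0.15 ± 0.73, exact p = 0.594) was higher in 3 and lower in 3 slices in fibrotic spots. In near spots this ratio was lower in 5 of 6 slices (-0.49 ± 0.40, exact p = 0.0625, adjusted 0.117). With a Col1a1 minimum of 10 it was lower there in 6 of 6 (exact p = 0.0313, adjusted 0.0781). The same count held with myelin-rich spots left out (exact p = 0.0313, adjusted 0.0521).

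Rest and 2 dpi were set side by side over whole slices, 1 slice each, with no test; intervals cover counting error only. The summed level of the 41 genes was 36.8 UMIs per 10000 at rest and 21.9 at 2 dpi, a ratio of 0.596 (95% interval 0.587 to 0.604). Of 36 members with at least 20 UMIs, 33 were lower at 2 dpi, 6 had a ratio of 0.5 or less and 0 a ratio of 2 or more, where 3.53% of 15197 genes were at 0.5 or less and 15.1% at 2 or more. Their median ratio was 0.665, and that of all genes 1.04. Among the 6 were Gabra5, which went from 0.748 to 0.228 UMIs per 10000 (ratio 0.304, 95% interval 0.267 to 0.346), Grm2, Grin2a and Grin2c. Grm2 went from 0.196 to 0.0680 UMIs per 10000 (ratio 0.346, 95% interval 0.271 to 0.439), and Grin2c from 0.230 to 0.108 UMIs per 10000 (ratio 0.472, 95% interval 0.386 to 0.574). Grin2a, the NMDA subunit of mature cortex, went from 2.13 to 0.956 UMIs per 10000 (ratio 0.450, 95% interval 0.421 to 0.480).

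In 3 of the 36 the level at 2 dpi was not below that at rest. Grik2 went from 0.217 to 0.234 UMIs per 10000 (ratio 1.08, 95% interval 0.921 to 1.26), Grm3 from 0.220 to 0.228 UMIs per 10000 (ratio 1.04, 95% interval 0.887 to 1.21) and Grm4 from 0.0287 to 0.0451 UMIs per 10000 (ratio 1.57, 95% interval 1.05 to 2.35). Grm4, a presynaptic receptor prominent in striatum, was the only 1 of the 36 whose interval lay above 1. The slices differ in anatomy and cell content too: deep-structure markers summed to 0.787 at rest and 3.36 per 10000 at 2 dpi, pan-neuronal markers to 70.7 and 41.4, and microglia and macrophage markers to 1.85 and 6.48. The part of these differences in the receptor values was not tested. With myelin-rich and deep-structure spots left out the ratio of the summed level was 0.637. The 375 spots under 1000 UMIs at 2 dpi, which hold 237110 UMIs, gave 0.816 against the whole slice at rest. That slice holds 16355749 UMIs in 1017 spots. Both ratios compare shares of UMIs and not amounts of receptor mRNA per spot.

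**Figure D5:**
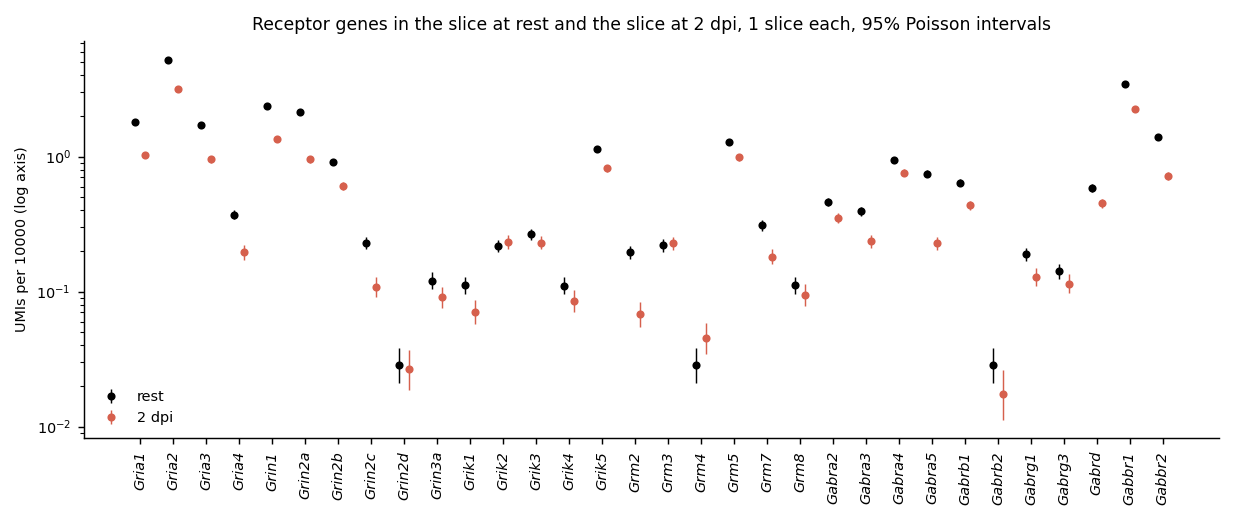
UMIs per 10000 (log axis) of 32 receptor genes with at least 20 UMIs in either slice, for the slice at rest (black) and the slice at 2 dpi (red), with exact 95% Poisson intervals that cover counting error only. Of the 32 genes, 29 lie lower at 2 dpi, and Grik2, Grm3 and Grm4 do not.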

How the data were processed

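Visium libraries of 4 capture areas were processed by the authors with Space Ranger 2.0.0 on mm10, and the deposited matrices give, for each gene, the unnormalised count of UMIs in every spot. Tissue pieces were separated as connected spots on the array, giving 8 slices, numbered within an area by position only. UMIs were summed per slice and zone, and a slice entered a comparison only with at least 20 spots in both zones. Summed counts were tested with edgeR 4.0.16 (R 4.3.3; TMM, filterByExpr, quasi-likelihood, slice as block where zones of a slice were compared), with Benjamini-Hochberg adjustment over all genes tested and a threshold of 0.05; DESeq2 1.42.0 was an alternative. Spots are not replicates. Fitted differences per total UMIs use totals after TMM scaling. The SE of an edgeR estimate is its absolute log2 difference divided by the square root of its quasi-likelihood F statistic. Ratios of subunits were tested with a two-sided exact sign-flip test over slices. Rest and 2 dpi, with 1 slice each, have exact 95% Poisson intervals and no test; these intervals cover counting error only. Other alternatives were a Col1a1 minimum of 10, a far zone from 8 positions, spots with at least 1000 UMIs, myelin-rich or edge spots left out, division by pan-neuronal marker UMIs and each slice left out. Full values are given for the members with the 6 largest and 6 smallest differences between fibrotic and far spots and, chosen after their values were seen, Gria2 and Gabra2; of other lists, at most the 4 genes with most UMIs at rest. Some members entered every fit, sum and count, and their own values are not reported here. Members, lists and tests were chosen with earlier results of these data known. The scripts were tested on simulated data. UMIs were counted per gene, and members that overlap other genes were not treated separately. Proteins and the promoters of 13 members were not used here.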

Additional observations from a re-analysis of the deposited data

Results flagged for a closer look

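In 5 of the log2 differences over the 4 WT slices, 1 slice lay far from the other 3. Grin2a between fibrotic and far spots was at -3.15 in 21 dpi slice 2, where the others lay between -1.97 and -1.74. Grm4 was at -0.25 in 7 dpi slice 1 (others -2.03 to -1.87), and Gabbr1 at -1.41 in 7 dpi slice 2 (others -2.03 to -1.95). Between near and far spots, Grin2c was at -1.47 in 7 dpi slice 1 (others -0.51 to -0.47) and Grm8 at -0.24 in the same slice (others -1.90 to -1.77). The values of 7 dpi slice 1 rest on 4 UMIs in fibrotic spots for Grm4 and on 6 UMIs in near spots for Grm8. Such gaps were found for 3 of 35 genes in fibrotic and 2 of 35 in near spots. Chance gives about 1 in 20 for normally distributed values of equal spread, which log2 values of few UMIs need not be.

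In near spots 2 of 35 genes had opposite signs of the difference from far spots at the 2 times. The sign was the same in both slices of a time, and the difference between times was not tested. How many of all genes did so was not counted, and with 2 slices a time such a pattern can arise by chance. Gabrb1 was lower in near than in far spots in both 7 dpi slices (-1.22 and -0.69) and higher in both 21 dpi slices (0.25 and 0.14), with means 1.15 apart on the log2 scale. The deleter slices at 21 dpi had 0.11 and 0.00, with a mean 1.01 above that at 7 dpi. Grm3 was at -0.30 and -0.46 at 7 dpi and at 0.04 and 0.25 at 21 dpi, with means 0.52 apart. Its values in the deleter slices were -0.25 and 0.04. Summed levels of the astrocyte markers at 7 dpi were 29.7 and 29.8 in near spots and 46.5 and 41.9 in far spots. They were 41.9 and 49.3 against 35.4 and 29.7 at 21 dpi, and 54.1 and 45.1 against 35.5 and 30.9 in the deleter slices. Near sums were thus also lower than far sums at 7 dpi and higher at 21 dpi. The part of astrocyte content in the signs of Gabrb1 and Grm3 was not tested.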

How the results depend on the processing

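Lower levels in fibrotic spots of the WT slices were called for 30 to 34 members under every setting except the scale per pan-neuronal marker UMI. The 30 were of 32 tested against the middle zone, where 2651 of 12485 genes were called lower. With no filter on low counts 34 of 41 members and 4458 of 21706 genes were. All other settings tested 35 members, with between 3073 of 13711 genes (without 21 dpi slice 1) and 4642 of 13567 (deleter slices added) called lower. On that scale 7 members were called higher for fibrotic against far spots, 4 for near against far, 2 in the deleter slices and 1 for the difference between 21 and 7 dpi, and most log2 differences changed sign. For fibrotic against far spots in WT slices, 35 of 35 members were negative per total UMIs and 8 on that scale, and those that turned positive included Gabbr1 0.34, Gabra2 0.65, Gabra3 0.63, Gabra4 0.21, Gabrb1 1.09, Gabrd 0.052, Gabrg1 0.73, Gabrg3 0.59, Gria1 0.24, Gria2 0.48, Gria3 0.70, Gria4 0.52, Grik1 0.24, Grik2 0.88, Grik4 0.98, Grik5 0.52, Grin2a 0.012, Grin2b 0.62, Grin2c 0.58, Grin3a 1.43, Grm3 1.12, Grm4 0.45, Grm5 0.38 and Grm7 0.22. For near against far spots 33 of 35 were negative per total UMIs and 8 on that scale, and those called lower that turned positive included Gabbr1 0.20, Gabrd 0.23, Grik2 0.045, Grik5 0.21 and Grin2c 0.043. In the deleter slices 34 of 35 and 5 were negative, and those that turned positive included Gabbr2 0.30, Gabrb1 1.19, Grik2 0.53, Grik3 0.23, Grik4 0.36, Grin3a 1.51, Grm2 0.32 and Grm3 0.49. The near count of 13, with 1443 of 13264 genes lower, became 7 without the slice block (470 of 13264), 21 with the largest fibrotic patch alone (1769 of 13252), 24 with the deleter slices added (2626 of 13234) and 0 against the middle zone (10 of 12338), and ran from 3 to 14 with each slice left out in turn. For the difference between days the count was 3 with no filter on low counts, where 610 of 21706 genes were called, and ran from 0 to 10 over left-out slices. Between deleter and WT far zones DESeq2 called 1 member. The log2 ratio of Gria1 to Gria2 in fibrotic spots ran from -0.33 to 0.049 over left-out slices. The ratio of 2 dpi to rest was 0.585 without edge spots, 0.637 without myelin-rich and deep-structure spots and 0.816 in spots under 1000 UMIs at 2 dpi. The middle zone as reference, library totals without TMM, and the last 2 spot selections were chosen after seeing the data. The causes of these changes were not tested. No paired analysis between groups was possible because each group is 1 capture area whose slices carry no replicate numbers.

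With 2 slices a group and few UMIs for genes such as Grin2d, Grin3a and Grm3, small differences were not detectable at this depth. Time, genotype and capture area cannot be told apart.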
